A study of Mus musculus with 12 samples.

Results

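The genes described here encode the core machinery of pre-mRNA splicing and the proteins that coat nascent RNA. They were taken from the count table by symbol: the serine and arginine rich splicing factors (Srsf), the heterogeneous nuclear ribonucleoproteins (Hnrnp), both U2 auxiliary factor subunits (U2af), the SF3A and SF3B subunits of the U2 particle (Sf3), the small nuclear ribonucleoprotein polypeptides (Snrp) and the pre-mRNA processing factors (Prpf). In all, 65 of the 7318 listed genes were members, 11 of them Srsf, 20 Hnrnp, 2 U2af, 9 Sf3, 10 Snrp and 13 Prpf genes. The cells came from the mammary glands of female FVB/N mice that were 4 weeks old and carried both MMTV-Wnt1 and MMTV-iFgfr1. MMTV is a viral promoter active in mammary epithelium, and iFGFR1 is an inducible form of FGF receptor 1 that is activated by the dimerizing compound AP20187. Mice received vehicle or AP20187 by intraperitoneal injection 6 h before the glands were taken, so the Wnt1 and iFgfr1 transgenes were present in both groups, and no group received AP20187 without iFGFR1. Glands were digested with collagenase in the presence of cycloheximide, and epithelial cells were enriched by brief centrifugation with no cell sort. Each pellet gave an RNA library and a ribosome footprint library, which made 4 groups of 3 libraries and 12 libraries in all. The labels do not say whether a replicate is a single mouse or a pool, so the p-values below cover only the variation among the libraries at hand, which may be technical.

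Splicing removes introns in a series of steps carried out by small nuclear ribonucleoproteins. The U1 particle pairs with the 5′ splice site, U2AF binds the pyrimidine tract and the AG at the 3′ splice site, the U2 particle with SF3A and SF3B engages the branch point, and the U4/U6.U5 particle with its PRPF proteins then joins to form the active spliceosome. SR proteins bind exonic enhancers through RNA recognition motifs and recruit this machinery, while hnRNP proteins often act against it or guide it to other sites. Many SR and hnRNP genes are known to limit their own output by splicing in an exon with a premature stop, which sends the transcript to nonsense-mediated decay. In the GENCODE M21 annotation, a transcript of that class was listed for 9 of the 11 Srsf genes (81.8%), 10 of the 20 Hnrnp genes, both U2af genes, 7 of the 13 Prpf genes (53.8%), 4 of the 10 Snrp genes and 1 of the 9 Sf3 genes, beside 30.1% of the listed genes that matched the annotation. The deposited counts are per gene and do not separate such transcripts from productive ones.

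Many of these genes also have processed pseudogenes, which are spliced copies pasted elsewhere in the genome, and the copies bear on where a short footprint read can be placed. Parts of 3 coding sequences are shown beside the same part of a pseudogene, from GENCODE M21 transcripts on mm10. These genes were picked for having both close copies and footprint values far below their RNA values. As given further below, Prpf40b, Prpf4b and Sf3b1 were low too with little or no copied sequence, and Hnrnpf had close copies and was not low. The stretch of Hnrnpk lies at chr13:58395212-58395271 on the minus strand and that of its copy Gm7964 at chr7:83756442-83756501 on the plus strand. The stretch of Srsf3 lies at chr17:29038501-29038560 (plus) and that of Gm9761 at chr3:116561150-116561209 (minus). For U2af1 it spans an intron within chr17:31648877-31651687 (minus), and that of Gm10232 lies at chr17:3044517-3044576 (minus). Each stretch is 60 bases of coding sequence, 5′ to 3′, in lower case, and capitals mark the bases at which gene and copy differ.
Hnrnpk: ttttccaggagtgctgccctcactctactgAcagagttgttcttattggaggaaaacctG
Gm7964: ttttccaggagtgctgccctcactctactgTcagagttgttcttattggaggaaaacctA
Srsf3: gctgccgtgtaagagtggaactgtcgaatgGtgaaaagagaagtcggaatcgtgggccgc
Gm9761: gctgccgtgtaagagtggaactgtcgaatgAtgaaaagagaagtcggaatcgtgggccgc
U2af1: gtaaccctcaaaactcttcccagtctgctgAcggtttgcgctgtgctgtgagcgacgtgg
Gm10232: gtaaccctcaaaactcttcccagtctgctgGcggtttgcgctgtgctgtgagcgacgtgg
The longest run without a difference was 568 bases between Hnrnpk and Gm7964, 247 bases between Srsf3 and Gm9761 and 529 bases between U2af1 and Gm10232. Cut into every window of 30 bases, about the length of a footprint, 78.2% of the Hnrnpk coding windows also occurred in a transcript of another gene, 94.2% for Srsf3 and 82.9% for U2af1. Among all members 16 of 65 (24.6%) shared at least 50% of their windows with another gene, against 497 of 7134 listed genes (6.97%). By family these were 6 of 20 Hnrnp, 4 of 10 Snrp, 3 of 11 Srsf, both U2af, 1 of 9 Sf3 and 0 of 13 Prpf genes.

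Members made up 2.10% to 2.30% of the RNA counts with vehicle and 1.79% to 2.03% with AP20187. In footprints their share was 1.96% to 2.29% with vehicle and 1.73% to 2.45% with AP20187. Total counts over the listed genes ran from 94513818 to 251874393 in the RNA libraries and from 1772969 to 11018709 in the footprint libraries, so footprint values carry far more counting error. CPM below are counts scaled to a common library total over the listed genes, with TMM factors within the assay. Markers of the labelled epithelial cells were present: the summed RNA level of 8 luminal markers was 4771 to 5736 CPM and that of 8 basal markers 4867 to 5637 CPM with vehicle, beside 3347 to 5826 CPM for 6 fibroblast markers. No listed marker of any of these cell types was at 0 in an RNA library.

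Levels between genes were compared per length, as RNA CPM per kilobase of exon with vehicle. The length was the union of exons over all annotated transcripts of a gene, so it can exceed that of any single transcript. Coding length was taken in the same way. The orders and ranges below therefore also depend on how many transcripts are annotated. Among the Srsf genes Srsf5 was highest at 275 CPM per kb, followed by Srsf2 at 227 and Srsf7 at 216 CPM per kb. Srsf12 was lowest, at 0.418 CPM per kb, and had no footprint count in vehicle replicates 1 and 3, where 3 counts would be 1.61 and 0.749 CPM before scaling. It was left out of the footprint response by the filter on low counts, which kept 64 members. The Hnrnp genes ran from 4.36 CPM per kb for Hnrnph3 to 239 for Hnrnpab and 236 for Hnrnpa2b1, which encodes a reader of RNA for splicing and transport. The Sf3 genes ran from 7.19 CPM per kb for Sf3b5 to 172 for Sf3b1, the large subunit that clamps the branch point. The Snrp genes ran from 4.10 for Snrpc, a U1 protein, to 124 CPM per kb for Snrpb, which encodes the Sm ring proteins B and B′. The Prpf genes spanned a narrower range, from 12.6 CPM per kb for Prpf31 to 67.4 for Prpf8, the scaffold at the centre of the spliceosome. U2af2 stood at 90.4 and U2af1 at 57.5 CPM per kb. In footprints per kilobase of coding sequence, Srsf2 was highest of all members at 2859 CPM per kb, ahead of Hnrnpa2b1 at 1729, Hnrnpab at 1190 and Hnrnpa0 at 1125. The lowest after Srsf12 were Hnrnpa1 at 2.30, Hnrnpa3 at 5.86, Prpf40b at 7.27 and Hnrnpk at 8.56 CPM per kb. Within the top of the Srsf and Hnrnp orders neighbours were close: Hnrnpab had 666 ± 13.7 CPM and Hnrnpa2b1 1555 ± 244 CPM before division by length (SD, n = 3), and their per-length values differed by less than the spread of Hnrnpa2b1.

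The RNA response asked what FGFR1 activation did to transcript levels. The SR protein genes Srsf7, Srsf5 and Srsf10 fell with AP20187, and the SR protein gene Srsf9 rose. Prpf31, Prpf19, Snrpa and Sf3a1 rose as well. In all 5 members rose and 3 fell of 65 (edgeR's quasi-likelihood test, adjusted p under 0.05), which is a smaller share than the background, since 26.2% of all genes tested were called, 12.4% higher and 13.9% lower. At an unadjusted p under 0.05 there were 15 members, where 40.9% of all genes were. The changes were modest, between 1.34-fold and 1.55-fold for the members that rose. Those that fell stood at 0.57 to 0.66 times their vehicle level.

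Gene positions are GENCODE M21 intervals on mm10, which span all transcripts of a gene. Srsf7 (chr17:80200080-80207307, minus strand), an SR protein with a zinc knuckle, had RNA levels of 708, 686 and 907 CPM with vehicle and 397, 404 and 501 CPM with AP20187. Every AP20187 library was below every vehicle library. Its log2 fold change was -0.82 ± 0.17 (SE, n = 3 per group, edgeR adjusted p = 0.0144). Srsf5 (chr12:80945504-80950507, plus strand) had 1026, 1027 and 1231 CPM with vehicle against 729, 591 and 794 CPM with AP20187, again without overlap. The log2 fold change was -0.64 ± 0.17 (edgeR adjusted p = 0.0292). Srsf10 (chr4:135855747-135869908, plus strand), which is known as a splicing repressor that responds to dephosphorylation, had 237, 214 and 288 CPM with vehicle. With AP20187 its values were 160.3, 150.2 and 179.8 CPM, and the log2 fold change was -0.59 ± 0.15 (edgeR adjusted p = 0.0254). In each of these genes vehicle replicate 3 was the highest library. Coding windows of 30 bases that also occur in other genes made up 69.3% for Srsf5, 87.0% for Srsf10 and 11.6% for Srsf7. For 50-base windows of their transcripts the shares were 10.1%, 10.3% and 0.556%. Srsf9 (chr5:115327177-115333080, plus strand) went the other way, with 34.6, 38.5 and 36.8 CPM with vehicle and 50.9, 61.7 and 47.3 CPM with AP20187. Its log2 fold change was 0.54 ± 0.15 (edgeR adjusted p = 0.0324), and with the replicate number as a block the call was lost (edgeR adjusted p = 0.0542).

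Beyond the called genes, 10 of the 11 Srsf genes had a negative RNA log2 fold change and their median was -0.36, against 0.01 over all genes tested, where 49.0% were negative. For 5 Srsf genes, Srsf2, Srsf5, Srsf6, Srsf7 and Srsf10, all AP20187 libraries were below all vehicle libraries, a pattern that 23.1% of all genes showed. The family's summed share of the RNA counts was 0.509% to 0.584% with vehicle and 0.368% to 0.429% with AP20187. Srsf6, with 711, 654 and 828 CPM against 528, 548 and 582 CPM, did not pass the threshold (log2 fold change -0.40 ± 0.15, edgeR adjusted p = 0.0751). The negative count of 10 was the same when any single RNA library was left out, and the median then ran from -0.43 to -0.28.

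**Figure D1:**
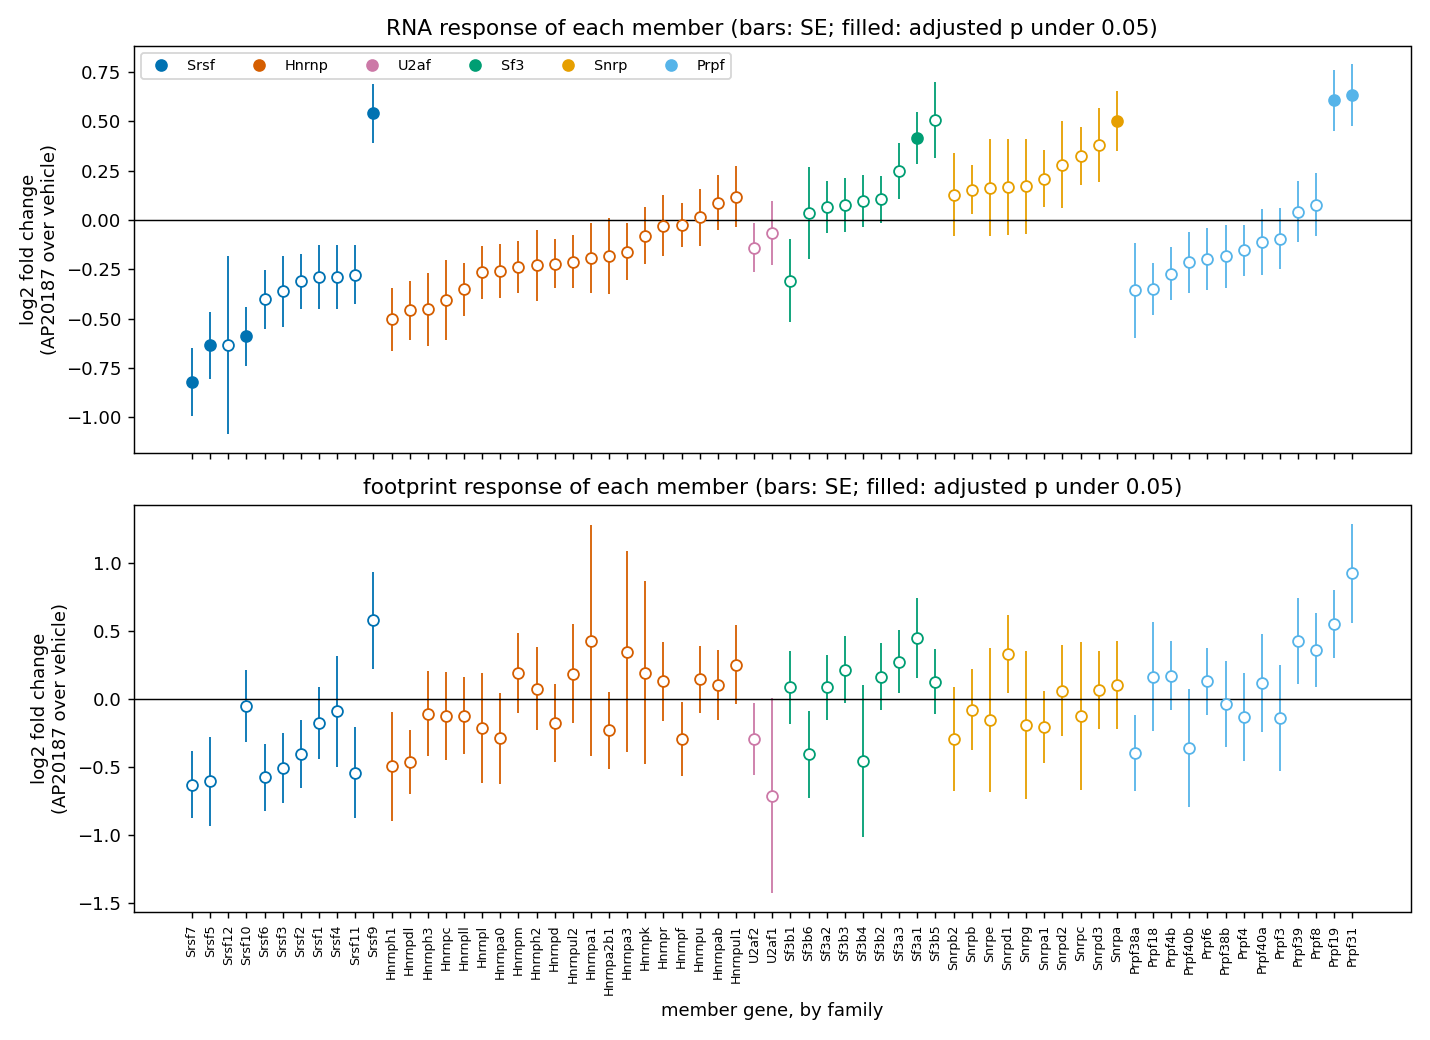
Log2 fold change of each member with AP20187 over vehicle in RNA (top) and footprints (bottom), grouped by family; points are edgeR estimates, bars are SE from 3 libraries per group, and filled points have an adjusted p under 0.05. In RNA 8 points are filled, Srsf7 is lowest at -0.82 and Prpf31 highest at 0.63, and in footprints no point is filled.

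The start regions of the SR genes that fell are shown with that of Srsf9, since these members moved together and Srsf9 moved against them. Each line is the 100 bases before the start that RefSeq gives on GRCm38.p6, on the gene's own strand, 5′ to 3′, with matches to any of 5 motifs in capitals. RefSeq starts can differ from the ends of the GENCODE intervals above, and for Srsf10 the RefSeq start and the stretch lie inside its interval. The stretch of Srsf5 is chr12:80945399-80945498 (plus), that of Srsf7 chr17:80207306-80207405 (minus), that of Srsf10 chr4:135855971-135856070 (plus) and that of Srsf9 chr5:115327077-115327176 (plus).
Srsf5: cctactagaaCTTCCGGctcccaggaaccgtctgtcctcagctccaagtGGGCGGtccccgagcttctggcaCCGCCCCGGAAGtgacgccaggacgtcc
Srsf7: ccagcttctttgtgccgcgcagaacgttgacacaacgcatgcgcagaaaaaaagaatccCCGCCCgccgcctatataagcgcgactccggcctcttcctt
Srsf10: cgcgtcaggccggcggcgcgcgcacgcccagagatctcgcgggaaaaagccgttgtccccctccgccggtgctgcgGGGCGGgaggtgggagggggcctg
Srsf9: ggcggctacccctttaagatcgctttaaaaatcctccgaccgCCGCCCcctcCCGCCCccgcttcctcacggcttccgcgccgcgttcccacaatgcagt
The motifs searched on both strands were CCGGAAG (the ETS family), TGACGT (a partial cyclic AMP response element), CACGTG (the E-box), CCAAT and GGGCGG (the GC box), in the 300 bases from 250 before to 50 after each start. A promoter in the table matched 56 of the 65 members. CCGGAAG was found in 4 of the 11 Srsf promoters, those of Srsf4, Srsf5, Srsf7 and Srsf11. It was found in 35.7% of the 56 members and in 21.9% of the 5675 listed genes with a promoter, so it was not particular to the SR genes. In Srsf7 the match lies outside the stretch printed. GGGCGG was found in 10 of 11, against 71.7% of listed genes, and CACGTG in 0 of 11, against 12.3%. TGACGT was found in 3 of 11, against 13.8%, and CCAAT in 4 of 11, against 42.1%. A match describes the letters and is not a measured site.

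**Figure D2:**
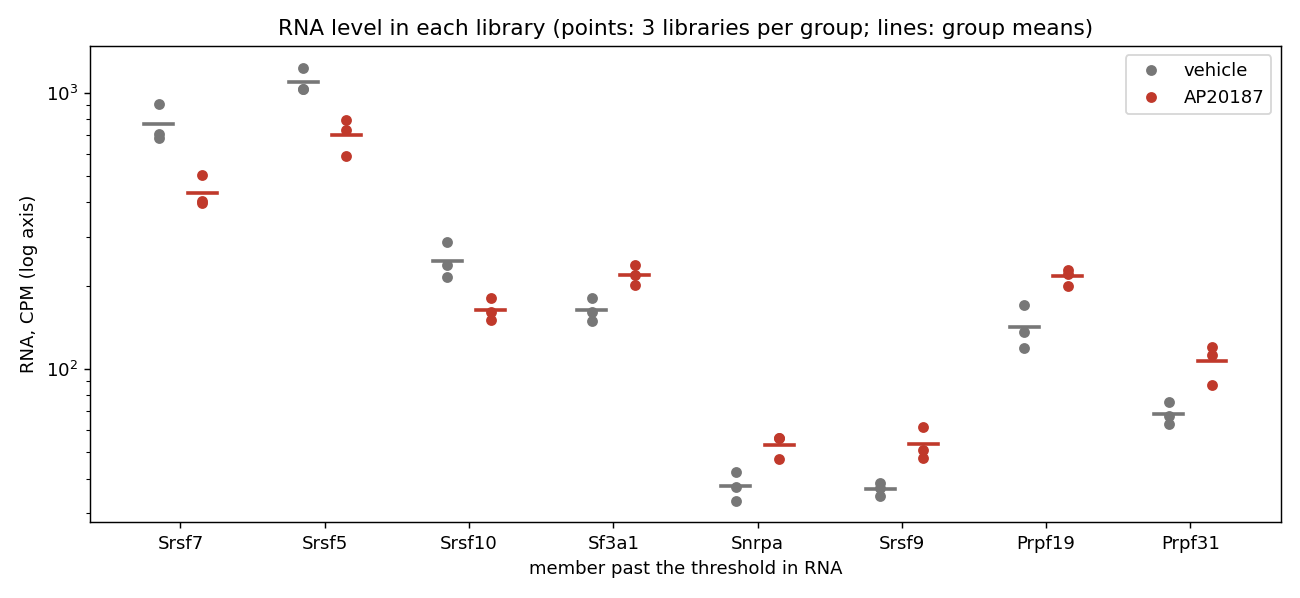
RNA level in CPM on a log axis for the 8 members past the threshold, with the 3 vehicle libraries in grey, the 3 AP20187 libraries in red and lines at the group means. The red and grey points of a gene do not overlap for any of the 8, and Srsf7 and Srsf5 reach 907 and 1231 CPM with vehicle.

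None of the 20 Hnrnp genes passed the threshold in RNA under the edgeR fit without a block, although 17 of them had a negative log2 fold change and their median was -0.22. The nearest were Hnrnph1 and Hnrnpdl, regulators that bind G-rich and AU-rich RNA respectively. Hnrnph1 had 1236, 1142 and 1439 CPM with vehicle and 868, 823 and 999 CPM with AP20187, without overlap (log2 fold change -0.50 ± 0.16, edgeR adjusted p = 0.0509). It was lower past the threshold with the replicate block (edgeR adjusted p = 0.0467), DESeq2 (0.00960) and limma voom (0.0421), and also without vehicle replicate 2 (edgeR adjusted p = 0.0454). Hnrnpdl had 584, 542 and 665 CPM against 429, 392.2 and 484 CPM (log2 fold change -0.46 ± 0.15, edgeR adjusted p = 0.0553). It too passed with the block (edgeR adjusted p = 0.0484), DESeq2 (0.0186) and limma voom (0.0484). For 7 of the 20 genes, all AP20187 libraries lay below all vehicle libraries, a pattern that 23.1% of all genes showed. The family's largest positive value was 0.12, for Hnrnpul1. The U2af pair had log2 fold changes of -0.14 for U2af2 and -0.07 for U2af1.

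Apart from Srsf9, the members that rose were 2 Prpf genes, 1 Snrp gene and 1 Sf3 gene. Prpf31 (chr7:3629985-3642486, plus strand), which tethers U4/U6 to U5, had 67.2, 75.6 and 62.9 CPM of RNA with vehicle and 112, 87.1 and 119 CPM with AP20187. The groups did not overlap, and the log2 fold change was 0.63 ± 0.16 (edgeR adjusted p = 0.0240, and 0.0660 with the replicate block, which ends the call). Prpf19 (chr19:10895231-10909559, plus strand), a ubiquitin ligase of the complex that activates the spliceosome, had 136, 169.6 and 119 CPM against 199, 219.8 and 228 CPM. The log2 fold change was 0.61 ± 0.16 (edgeR adjusted p = 0.0257), again with the groups apart. Snrpa (chr7:27187005-27196271, minus strand) encodes a protein of the U1 particle and had 37.1, 42.1 and 33.3 CPM against 47.1, 56.1 and 56.2 CPM. Its log2 fold change was 0.50 ± 0.15 (edgeR adjusted p = 0.0422). The call was lost with the replicate block (edgeR adjusted p = 0.0697) and with upper-quartile scaling. Of its coding windows of 30 bases 62.1% also occur in other genes, and of the 50-base windows of its transcripts 11.15%. Sf3a1 (chr11:4160350-4182541, plus strand), the largest SF3A subunit, had 181, 149 and 160.2 CPM against 237, 200.2 and 218 CPM. Its log2 fold change was 0.42 ± 0.13 (edgeR adjusted p = 0.0485), the nearest to the threshold among the members that rose, and RLE scaling put it just outside (edgeR adjusted p = 0.0515).

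All 10 Snrp genes had a positive RNA log2 fold change, with a median of 0.19, and 8 of 9 Sf3 genes did, with a median of 0.10. The Snrp values moved with single libraries. Snrpd1, a protein of the Sm ring, had 60.0, 91.3 and 75.7 CPM with vehicle and 69.1, 68.8 and 117 CPM with AP20187, so that only AP20187 replicate 3 was high. Snrpg, another Sm protein, had 34.1, 48.3 and 39.2 CPM against 36.9, 37.2 and 62.8 CPM, with the same library high. Without AP20187 replicate 3 the Snrp median was 0.09 and 6 of 10 were positive. With another library left out all 10 stayed positive, and the median was 0.37 without vehicle replicate 2, 0.31 without AP20187 replicate 1 or 2, 0.17 without vehicle replicate 1 and 0.18 without vehicle replicate 3. In Snrpa, Snrpb and Snrpc all AP20187 libraries were above all vehicle libraries, as in 21.9% of all genes. The Prpf genes had a median of -0.15, with 9 of 13 negative, beside the 2 that rose. Without AP20187 replicate 2 that median was -0.05, with 7 of 13 negative, and over the other RNA libraries left out it ran from -0.17 to -0.11.

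**Figure D3:**
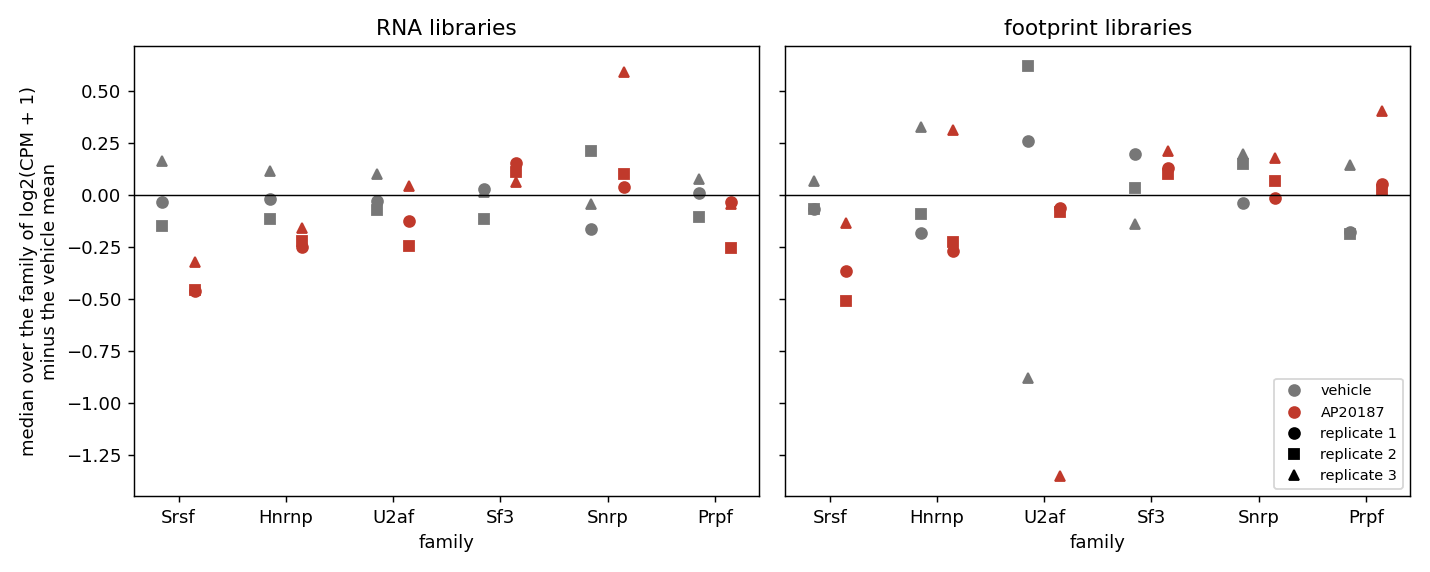
Median over each family of log2(CPM + 1) minus the gene's mean in vehicle, one point per library, for RNA (left) and footprints (right), vehicle in grey and AP20187 in red, with shapes for the replicate number. The AP20187 RNA medians of Srsf lie between -0.46 and -0.32, below the vehicle medians of -0.15 to 0.16, and the RNA median of Snrp in AP20187 replicate 3 stands at 0.59.

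The calls in RNA depended on single libraries. Without vehicle replicate 3, or without AP20187 replicate 1, 0 members rose and 0 fell, while calls over all genes dropped to 7.36% and 10.7%. Without vehicle replicate 1, 0 rose and Srsf7 alone fell, with 9.80% of all genes called, and without AP20187 replicate 3, 3 rose and 3 fell. The estimates themselves moved little: over these fits Srsf7 ranged from -0.93 to -0.68 and Prpf31 from 0.55 to 0.77. Markers of cell types moved with the same contrast in RNA. Of 8 luminal markers 6 rose and 2 fell, and their summed level went from 4771 to 5736 CPM with vehicle to 7213 to 9457 CPM with AP20187. Of 8 basal markers 1 rose and 4 fell (4867 to 5637 CPM against 2715 to 4150 CPM), and of 6 fibroblast markers 5 fell, from 3347 to 5826 CPM to 1252 to 1702 CPM. Endothelial (4 of 5), adipocyte (3 of 4) and Schwann cell markers (3 of 4) fell too, and the only listed macrophage marker, Cd68, and lymphocyte marker, Ptprc, were not called. Their part in the changes of the splicing genes was not tested, and in bulk samples fewer cells of a type and less RNA per cell cannot be told apart.

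Related genes outside the symbol rule were read from 8 lists with 155 listed genes, of which 5 rose and 9 fell in RNA. That is a smaller share than the 26.2% called over all genes. In the list of hnRNP-like and other RNA-binding regulators 2 rose and 8 fell of 42, a share near that of all genes. Its smallest p-values belonged to Khdrbs3, a STAR family protein, at 0.72 ± 0.13 (edgeR adjusted p = 0.0104) and to Celf2 at -1.17 ± 0.24 (edgeR adjusted p = 0.0137). The list on assembly by the SMN complex, which loads Sm rings onto small nuclear RNA, is not limited to subunits of that complex. In this list 2 of 12 genes rose. These were Gemin5 at 0.64 ± 0.14 (edgeR adjusted p = 0.0172) and the methyltransferase Prmt5 at 0.44 ± 0.12 (edgeR adjusted p = 0.0336). The helicase gene Dhx16 rose, as 1 of 36 other U4/U6.U5 and PRP19 complex genes (0.53 ± 0.13, edgeR adjusted p = 0.0211). Dyrk1a, a kinase of SR proteins, fell, as 1 of 6 in its list (-0.62 ± 0.17, edgeR adjusted p = 0.0295). None of the 21 SR-related genes, 17 U1 and U2 associated genes, 10 LSM genes or 11 exon junction genes passed the threshold. The SR-related list had a median of -0.30, with Luc7l2 at -0.41 ± 0.14 (edgeR adjusted p = 0.0649) and Son, a scaffold of nuclear speckles, at -0.46 ± 0.17 (edgeR adjusted p = 0.0851).

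The footprint response asked whether ribosome occupancy changed in the same way. No member passed the threshold in either direction (edgeR's quasi-likelihood test), where 2.54% of all genes did, 0.937% higher and 1.6% lower. At an unadjusted p under 0.05 there were 3 members, against 16.5% of all genes, and DESeq2 and limma voom called 0 members as well. The 5 smallest p-values belonged to Srsf7, Prpf31, Srsf6, Prpf19 and Srsf3, of which Srsf7, Prpf31 and Prpf19 were also called in RNA. Srsf7 had 752, 613 and 745 CPM of footprints with vehicle and 507, 426 and 443 CPM with AP20187, with the groups apart (log2 fold change -0.63 ± 0.24, edgeR adjusted p = 0.218). Prpf31 had 53.4, 48.9 and 94.0 CPM against 88.5, 99.8 and 190.3 CPM, where replicate 3 was the highest library of both groups. Its log2 fold change was 0.92 ± 0.37 (edgeR adjusted p = 0.230), and with the replicate number as a block, which these footprint libraries share, it was 0.91 ± 0.22 (edgeR adjusted p = 0.0149). The block raised the share of all genes called in footprints to 10.2%, and Prpf31 was the only member called. Srsf6 had 599.8, 692 and 557 CPM against 451, 441 and 359 CPM (log2 fold change -0.57 ± 0.25, edgeR adjusted p = 0.270). Prpf19 had 129, 153 and 121 CPM against 183, 240.2 and 172 CPM (0.55 ± 0.25, edgeR adjusted p = 0.305), and Srsf3 270.2, 363 and 322 CPM against 247, 176 and 254 CPM (-0.51 ± 0.26, edgeR adjusted p = 0.359). In these 3 genes the footprint groups did not overlap. Of the 64 members tested, 2 had all AP20187 footprint libraries above all vehicle libraries and 5 had them below. Over all genes 11.8% had them above and 11.5% below, so members showed no excess of this pattern.

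Over the family, 9 of 10 Srsf genes tested had a negative footprint log2 fold change, with a median of -0.46 against 0.03 over all genes, 48.0% of which were negative. The footprint share of the Srsf family was 0.4995% to 0.513% with vehicle and 0.362% to 0.442% with AP20187. In 4 of the 10 all AP20187 libraries lay below all vehicle libraries, as in 11.5% of all genes. The Hnrnp median was -0.02, that of Sf3 0.13, of Prpf 0.13 and of Snrp -0.10. Footprint replicate 3 stood apart for many members. In 29 of 64 it was above replicates 1 and 2 of its group with vehicle and again with AP20187, against 21.7% of all genes tested. In 12 of 64 (18.8%) it was below them in both treatments, a smaller share than the 22.0% of all genes tested. The members above included 11 of 20 Hnrnp genes, such as Hnrnpl with 1167, 1436 and 1976 CPM with vehicle and 842, 872 and 2272 CPM with AP20187. U2af1 lay below, with 26.1, 38.1 and 7.03 CPM with vehicle and 19.7, 20 and 3.2 CPM with AP20187.

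The change in the footprint to RNA ratio, fitted as an assay by treatment interaction, asked whether occupancy changed beyond RNA. No member passed, and none of the 7315 genes tested did (edgeR, 0.0% called). At an unadjusted p under 0.05 there were 350 genes and 0 members, DESeq2 called 10 genes and 0 members, and limma voom called 0 genes. The 5 members with the smallest p-values were Srsf10 (0.48 ± 0.28), Snrpa1 (-0.46 ± 0.30), Prpf4b (0.40 ± 0.26), Sf3b5 (-0.43 ± 0.29) and Snrpa (-0.45 ± 0.32), each with an edgeR adjusted p of 0.988. For Srsf10 this reads as RNA that fell beside footprints of 61.0, 58.2 and 72.7 CPM with vehicle and 52.5, 65.0 and 69.6 CPM with AP20187, which overlapped. By family 9 of 10 Snrp genes had a negative value (median -0.38) and 14 of 20 Hnrnp genes a positive one (median 0.10). The median of all genes was -0.08, and 4216 of 7315 were negative. The sign counts moved with scaling for Hnrnp, from 6 negative to 3 with RLE and 8 with upper-quartile scaling. For Sf3 they went from 6 negative to 3 with RLE and stayed at 6 with upper-quartile scaling. For Snrp 9 stayed negative under both. A miss of the threshold here does not show that the ratios were equal.

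The footprint to RNA ratio within a treatment asked which members held many or few ribosomes for their RNA. It is given as log2 of footprint over RNA, with 0 at the level where TMM scaling sets the bulk of genes. Exon length, coding length and the placing of short reads enter this ratio, so it compares genes only on that scale. With vehicle 20 members were high and 19 low (edgeR adjusted p under 0.05), where 49.9% of all genes were called, 24.2% high and 25.7% low. With AP20187 16 members were high and 19 low, where 38.5% of genes were called, 18.0% high and 20.5% low. The ratios of members ran from -5.97 to 2.50 with vehicle.

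Hnrnpk, a protein that binds C-rich RNA and DNA, had the lowest ratio. Its RNA stood at 838, 834 and 929 CPM with vehicle, beside footprints of 3.27, 15.2 and 19.0 CPM, and the log2 ratio was -5.97 ± 0.47 (edgeR adjusted p = 2.03e-05). With AP20187 it was -5.75 ± 0.46. Hnrnpa3 (-3.17 ± 0.30), Hnrnpa1 (-3.18 ± 0.44), Hnrnpc (-2.43 ± 0.24) and Hnrnph2 (-1.89 ± 0.21) were low as well with vehicle. So were Hnrnpdl (-0.80 ± 0.18) and Hnrnpr (-0.69 ± 0.19). Hnrnpa1, which is usually among the most abundant nuclear proteins, had RNA of 23.5, 27.0 and 28.8 CPM and footprints of 2.72, 1.09 and 3.91 CPM, a mean of 7.33 counts, with 84.1% of its coding windows shared with other genes. The stretch of Hnrnpk printed above comes from a gene with 78.2% of its windows shared, and Hnrnpa3 had 96.3% and Hnrnpc 58.1%. Hnrnph2 had 71.9%, Hnrnpr 47.7% and Hnrnpdl 22.7%. At the other end stood Hnrnpa0, a gene without introns and with 0% of windows shared, with RNA of 198, 179 and 198 CPM and footprints of 807, 939.8 and 1342 CPM with vehicle (2.50 ± 0.24, edgeR adjusted p = 5.95e-05). Hnrnph3 had RNA of 14.1, 12.2 and 14.9 CPM and footprints of 67.5, 50.6 and 85.4 CPM (2.39 ± 0.27, edgeR adjusted p = 0.000147). Across the Hnrnp family 9 genes were high and 7 low with vehicle. The high ones also included Hnrnpl (1.55 ± 0.24), Hnrnpab (0.92 ± 0.19), Hnrnpu (0.74 ± 0.20) and Hnrnpll (0.73 ± 0.23). Hnrnpul1 (0.67 ± 0.22), Hnrnpd (0.63 ± 0.19) and Hnrnpf (0.47 ± 0.17) were the others.

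Among the SR genes Srsf9 had the highest ratio, with footprints of 108, 124 and 152 CPM on RNA of 34.6, 38.5 and 36.8 CPM (1.89 ± 0.20, edgeR adjusted p = 0.000104). Srsf4 (1.61 ± 0.30), Srsf2 (1.58 ± 0.19) and Srsf1 (0.55 ± 0.19) were high too. Srsf10 was lowest at -1.86 ± 0.20 (edgeR adjusted p = 0.000115), with Srsf3 at -1.56 ± 0.20 and Srsf5 at -1.10 ± 0.23. These low SR genes had the largest shares of common windows in the family, 87.0% for Srsf10, 94.2% for Srsf3 and 69.3% for Srsf5. The other 8 Srsf genes had at most 11.6%, the value of Srsf7, whose vehicle ratio was -0.05 ± 0.20. With AP20187 Srsf11 was low too (-0.74 ± 0.23, edgeR adjusted p = 0.0298), with 0% of its windows shared. Both U2af genes were low, U2af1 at -2.64 ± 0.47 and U2af2 at -1.36 ± 0.22. U2af1 had footprints of only 7.03 CPM in vehicle replicate 3 on RNA of 164 CPM, and its ratio in that pellet, relative to the median gene, was -4.45 against -2.31 and -1.81 in the others. The AP20187 pellets gave -2.68, -2.44 and -5.65.

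In the SF3 complexes Sf3b5, the smallest SF3B subunit, had a ratio of 2.49 ± 0.23 (edgeR adjusted p = 4.37e-05), with footprints of 168, 150.0 and 125 CPM on RNA of 24.9, 34.1 and 23.8 CPM. Sf3a2, Sf3a3 and Sf3b6 were high as well. Sf3b1 was the only Sf3 gene that was low, at -1.21 ± 0.23 (edgeR adjusted p = 0.00207), with RNA of 2070.3, 1683 and 2112 CPM beside footprints of 678, 728 and 995 CPM and 0% of windows shared. In the Snrp family Snrpd3 (1.53 ± 0.23), Snrpa1 (1.39 ± 0.21) and Snrpb (1.25 ± 0.18) were high and Snrpe was low at -1.23 ± 0.43 (edgeR adjusted p = 0.0407). Footprints of Snrpe were 38.1, 36.4 and 10.7 CPM with vehicle, so replicate 3 set it apart. Of the Prpf genes none was high and 5 were low with vehicle: Prpf40b (-2.05 ± 0.25), Prpf4b (-1.90 ± 0.20), Prpf18 (-1.12 ± 0.36), Prpf39 (-1.01 ± 0.23) and Prpf38a (-0.60 ± 0.22). Prpf40b and Prpf39, both tied to the U1 particle, had 0% of their windows shared and the kinase gene Prpf4b 0.535%. With AP20187 only Prpf40b (-2.19 ± 0.25) and Prpf4b (-1.45 ± 0.19) of this family were low.

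**Figure D4:**
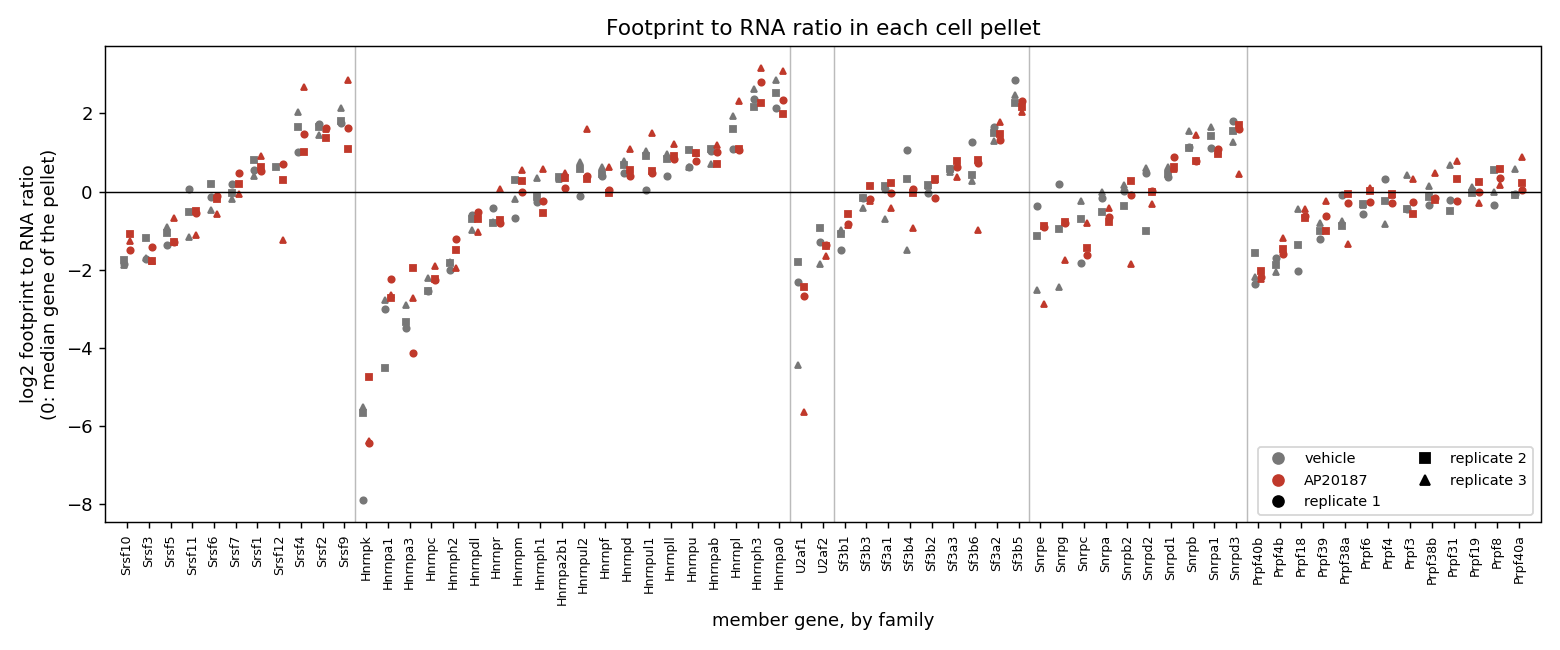
Log2 footprint to RNA ratio of each member in each cell pellet, set to 0 at the median gene of the pellet, with vehicle in grey, AP20187 in red and shapes for the replicate number. Hnrnpk is lowest, at -7.89 to -5.52 with vehicle, and both triangles of U2af1 (replicate 3) lie at -4.45 and -5.65, below its other pellets.

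Of the members low with AP20187, 4 were not called with vehicle: Snrpc (-1.26 ± 0.31 with AP20187 and -0.81 ± 0.37 with vehicle), Snrpg (-1.19 ± 0.28 and -0.86 ± 0.49), Srsf11 (-0.74 ± 0.23 and -0.49 ± 0.29) and Snrpa (-0.65 ± 0.23 and -0.26 ± 0.24). The test of the difference itself, the change in ratio above, called none of them.

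Ratio and shared sequence were set side by side over the members. Of the 16 members with at least 50% of windows shared, 10 were low and 1 high with vehicle, and of the 37 with under 10% shared, 5 were low and 17 high. With AP20187 13 of the 16 were low and 0 high. Over all genes tested with vehicle, 60.2% of those with at least 50% shared were low, against 22.5% of those with under 10%. The 10 of 16 members (62.5%) were thus near the share of all genes. High with vehicle were 13.7% of all genes with at least 50% shared and 25.7% of those with under 10%, beside 45.9% of the 37 members. With AP20187, 62.7% of all genes with at least 50% shared were low and 13.3% high. Spearman's rho between percent shared and ratio was -0.47 over 65 members and -0.18 over 7122 genes, across genes that share the same libraries and depth and are not independent replicates. Hnrnpf went against this pattern, with 97.8% of windows shared and a ratio of 0.47 ± 0.17 with vehicle (edgeR adjusted p = 0.0425). Its footprints were 191, 191 and 229.8 CPM on RNA of 155, 152 and 159 CPM. Sf3b4, Snrpd2 and Snrpg had 83.8%, 73.5% and 100% shared and were not called with vehicle. The part of read placing in these ratios was not tested, since the handling of reads with several matches is not given in the sources used here.

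**Figure D5:**
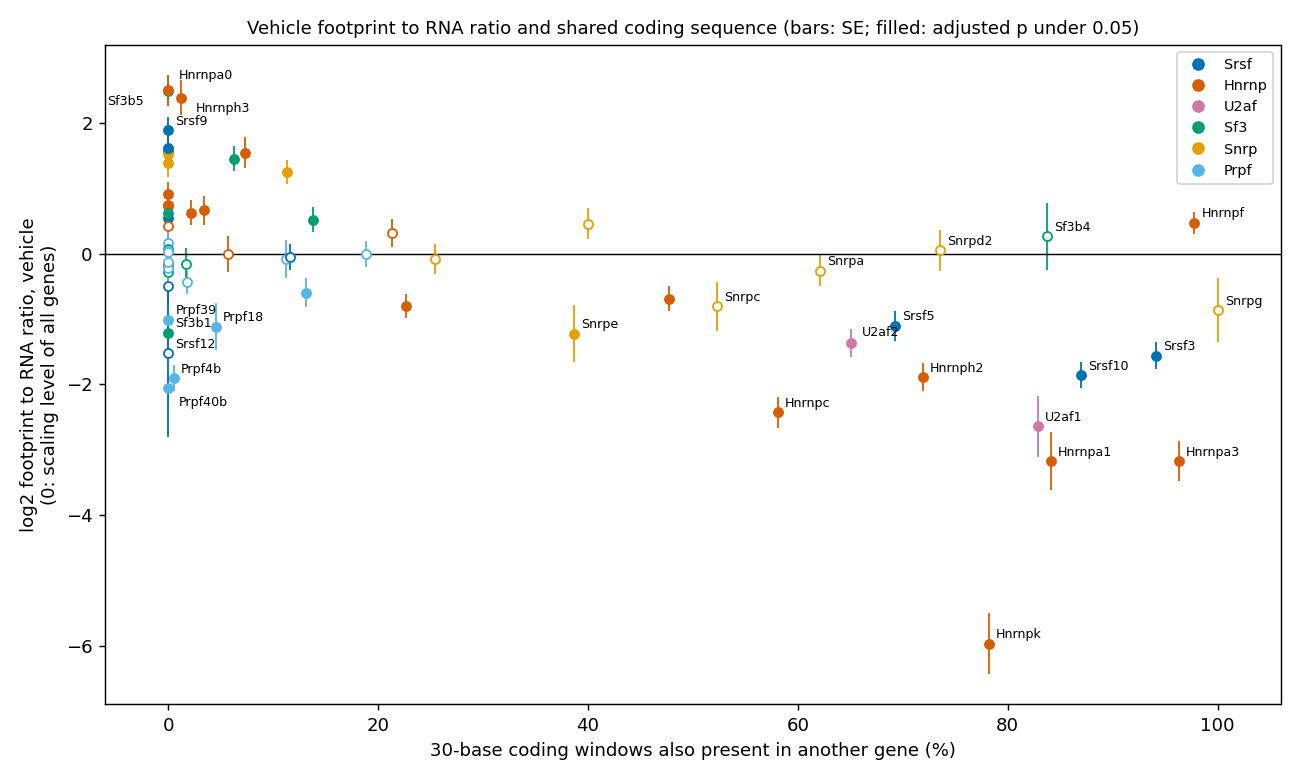
Log2 footprint to RNA ratio with vehicle against the percent of a gene's 30-base coding windows that also occur in another gene, one point per member, coloured by family, with SE bars and filled points for an adjusted p under 0.05. Hnrnpk at 78.2% has the lowest ratio, -5.97, Hnrnpf at 97.8% lies above 0, and Prpf40b, Prpf4b and Sf3b1 are low with under 1% shared.

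Single libraries and the pairing of pellets moved some of these ratio calls. With vehicle 13 members were high without RNA vehicle replicate 1 and 13 without RNA vehicle replicate 2, while the share of all genes called, high or low, went from 49.9% to 36.4% and 42.3%. With AP20187 9 were high without RNA AP20187 replicate 1, where that share went from 38.5% to 22.0%. With the pellet as a block, which each RNA library shares with a footprint library, 4 vehicle calls were lost: Hnrnpf (edgeR adjusted p = 0.0698), Prpf38a (0.0505), Sf3a3 (0.0637) and Sf3b6 (0.0586). With AP20187 the block added Snrpd1 (edgeR adjusted p = 0.0176), Prpf18 (0.0200), Srsf1 (0.0261), Prpf39 (0.0340) and Hnrnpd (0.0382). Of the 155 related genes 55 were low and 21 high with vehicle, beside 25.7% and 24.2% of all genes. In the SR-related list 11 of 21 genes were low and 1 high, led by Tra2b at -3.42 ± 0.22 (edgeR adjusted p = 6.94e-06), and 4 of 6 SR kinase and transport genes were low, led by Dyrk1a at -1.70 ± 0.26 (edgeR adjusted p = 0.000732). Among the LSM genes, some of which encode parts of the ring on U6, 4 of 10 were high and 2 were low. The high ones were led by Lsm4 at 2.10 ± 0.21 (edgeR adjusted p = 8.2e-05).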

How the data were processed

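The deposited values are raw counts for 7318 gene symbols in 12 libraries, which the authors left unnormalized. HTSeq, STAR, Bowtie2, cutadapt and bcl2fastq 1.8.3 are named with build mm10 per the submitters' processing notes. Not given in the sources used here are their settings, the strand setting, the counted region, the handling of reads with several matches and how genes were chosen for the table. Overlapping, antisense and near-identical genes are therefore uncertain.

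Counts were tested with edgeR 4.0.16 (R 4.3.3, TMM, filterByExpr, quasi-likelihood, 2-sided, Benjamini-Hochberg over all genes tested, threshold 0.05). RNA and footprint responses were fitted on the 6 libraries of each assay, the ratio change as an interaction over 12 libraries, and each ratio on the 6 libraries of a treatment. SE is the log2 fold change over the square root of F. Fits were also run on simulated counts with the same dispersion in every library and no pairing. That run does not cover the larger spread and the pairing of the footprint libraries here. Alternatives were RLE and upper-quartile scaling, no filter, DESeq2 1.42.0, limma 3.58.1 voom, a replicate block and each library left out. Limits from a count of 0 use 3 counts and cover counting error only.

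Same-numbered libraries deviated together across genes in footprints (r of 0.19 to 0.38 between treatments), so the number was taken to pair them, while RNA libraries did not (r of -0.06 to 0.20). RNA and footprints of a number share a pellet per the labels' protocols (r of 0.04 to 0.34 with vehicle and 0.37 to 0.53 with AP20187).

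Coding windows came from GENCODE M21, which matched 7144 listed symbols. The text names members past the threshold (at most 15 per direction) or otherwise the 5 smallest p-values, family extremes of RNA level and of ratio (at least 20 footprint counts with vehicle), and at most 2 genes per related list and comparison. The members and lists were chosen with earlier results of these data known.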

Additional observations from a re-analysis of the deposited data

How the results depend on the processing

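RNA calls were sensitive to the fit. With the replicate number as a block in RNA, 2 members rose and 5 fell, and 17.5% of all genes were called against 26.2% without it. RNA libraries of a number did not deviate together, and not every library correlated best with its own number. DESeq2 had 6 members higher, with Sf3b5 added (adjusted p = 0.0495), and 6 lower, with Hnrnph1, Hnrnpdl and Srsf6 (0.0313) added, where it called 34.0% of all genes. Limma voom had 5 higher and 5 lower, where it called 27.3%. RLE scaling lost Sf3a1 and upper-quartile scaling Snrpa, which left 4 higher in each. Leaving out each library gave 0 to 5 members higher and 0 to 4 lower in RNA, 13 to 21 high and 15 to 22 low in the vehicle ratio, and 9 to 16 high and 13 to 22 low in the AP20187 ratio. In footprints the replicate block gave 1 member higher, Prpf31, with 10.2% of all genes called against 2.54% without it. The block changed no call in the ratio change, and the calls it ended or added in the other comparisons stand beside those genes. Counting only members with under 10% of windows shared, an alternative chosen after seeing the data, left 5 low with vehicle and 4 low with AP20187. RLE and upper-quartile scaling kept the sign of every family's RNA and footprint median. Upper-quartile scaling moved the median vehicle ratio of all genes by more than 0.1, to 0.16 from -0.02, and that with AP20187 to 0.11 from -0.02. The Srsf median with vehicle went from -0.17 to 0.02 and so changed sign. That of Snrp went from -0.02 to 0.15, and to 0.003 with RLE scaling. In the ratio change the Sf3 median went from -0.02 to 0.04 with RLE scaling. There the Srsf median went from 7.5e-05 to -0.02 with upper-quartile scaling. Ratio directions of a family hold only relative to all genes. The cause of these moves was not tested. No single member named in the text changed the sign of a called value under the alternatives run. Footprint libraries held fewer counts than RNA libraries, and the part of depth in the low number of footprint calls was not tested.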
